A study of Homo sapiens with 10 samples.

Results

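The complement genes described here are C1R, C1S, C2, C3, C5, C4BPB, C8G, CFB and CFI, 9 genes that were found by symbol in a table of 32738 genes counted in HepG2 cells, a human hepatoma line. Control cells were mock treated in regular growth medium, and tunicamycin-treated cells received the same medium with 2 µg/ml tunicamycin, an inhibitor of N-linked glycosylation, for 17 h. Each condition has 5 libraries, and the series text states that the replicates were separate experiments on different days, so that a replicate number pairs a control with a tunicamycin library. Unless a block or pairing is named, p-values leave this pairing out and measure the spread between such experiments within a condition. The labels mention no vehicle in the control medium, and all libraries come from a tumour line without macrophages or other liver cells. In bulk RNA, fewer cells that express a gene and less RNA per cell cannot be told apart.

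Complement is a set of plasma proteins that tag and lyse microbes, and hepatocytes are the main source of most of them. The classical pathway starts with the proteases C1r and C1s, the alternative pathway with factor B, and the lectin pathway with sugar-binding collectins. All routes lead to cleavage of C3, the protein that marks surfaces, and then of C5, which starts the membrane attack complex. Soluble inhibitors such as factor I and C4b-binding protein, and membrane proteins such as CD46, CD55 and CD59, keep the cascade off the body's own cells. Most of these proteins are made in the ER and carry N-linked glycans.

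The total per library was 4242538 to 4888292 counts in control cells and 2234682 to 5029864 counts with tunicamycin, the lowest in tunicamycin replicate 5. Between 18.3% and 28.8% of these were mitochondrial. All 10 hepatocyte markers of a fixed list, ALB and AFP among them, were detected, and their summed normalized counts were 91700 to 106000 in control and 69800 to 77800 in tunicamycin libraries, with 6 of the 10 genes lower and none higher, against 16.6% and 17.6% of all tested genes. The part of this in the results below was not tested. Of 10 macrophage markers, 7 had no count in any library, including PTPRC, CSF1R and the 3 genes of C1q, and the sums (from LYZ, CD68 and CD14) were 1170 to 1640 and 1240 to 2050. Fibroblast markers summed to at most 4.72 and endothelial markers to at most 24.7 normalized counts in a library, with COL1A2, DCN, KDR and TEK at 0. Normalized counts are counts divided by the library size scaled with TMM and multiplied by its mean. The libraries sequence the 3′ ends of mRNAs, so these counts are not divided by transcript length.

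All 9 complement genes had enough counts to be tested. In edgeR's quasi-likelihood test, with an adjusted p under 0.05 as the threshold, C3, CFI and C1S fell with tunicamycin and C2 rose, while C1R, C5, C8G, CFB and C4BPB did not pass the test. These are 4 of 9 genes, against 34.2% of all 12733 tested genes, 17.6% higher and 16.6% lower. The median log2 fold change of the 9 genes was -0.52 and that of all tested genes was -0.003. The former is the value of C3, and of the genes below it C1R and CFB did not pass the test. The 10 hepatocyte markers had a median of -0.352 and the other tested complement genes one of -0.261. The 3 genes that fell also had no overlap between conditions, which was the case for 23.5% of tested genes, 11.7% higher and 11.9% lower.

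C3 (ENSG00000125730, chromosome 19, 6677704 to 6730562 on GRCh38), on which all 3 activation routes converge, was the most abundant of these transcripts in both conditions. It had 2191, 2061, 1930, 2013 and 2016 normalized counts in control replicates 1 to 5 and 1537, 1433, 1355, 1456 and 1324 with tunicamycin. Every tunicamycin library was below every control library. The mean was 2042 ± 95.5 in control and 1421 ± 84.8 in tunicamycin-treated cells (SD, n = 5 each). This is a fall to 0.696 of the control level (log2 fold change -0.52, standard error 0.08, edgeR adjusted p = 4.9e-05). Within replicate pairs the log2 ratio lay between -0.61 and -0.47, the narrowest range among the 9 genes. C3 held 51.9% ± 4.09 of the summed normalized counts of the 9 genes in control cells and 49% ± 2.66 with tunicamycin, while the sum itself went from 3945 ± 172 to 2898 ± 74.2 (SD, n = 5 each).

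CFI (ENSG00000205403, chromosome 4, 109731008 to 109802150), which encodes the protease that cuts C3b and C4b and so stops the cascade, fell further than C3. It had 674, 700, 795, 776 and 818 normalized counts in control replicates 1 to 5 and 323, 358, 405, 475 and 416 with tunicamycin. The conditions did not overlap. The log2 fold change was -0.93 (standard error 0.10, edgeR adjusted p = 1.16e-06), or 0.523 of the control level, and the log2 ratio within pairs lay between -1.06 and -0.71. Exons of a same-strand gene without a symbol overlap 16.8% of the last 500 bases of its canonical transcript in GENCODE release 44. The reads were counted with another annotation, so whether this overlap touched the counts is not known.

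C4BPB (ENSG00000123843, chromosome 1, 207088860 to 207099993), the beta chain of C4b-binding protein, a cofactor of factor I, did not pass the test. Its normalized counts were 471, 523, 666, 677 and 767 in control replicates 1 to 5 and 593, 499, 602, 534 and 628 with tunicamycin. The tunicamycin libraries lie inside the range of the control libraries. The log2 fold change of -0.12 had a 95% interval from -0.37 to 0.13 (edgeR adjusted p = 0.46), so that a fall of the size seen for C3 is outside the interval. The control libraries themselves varied by 19.5% (coefficient of variation), against 9.23% with tunicamycin.

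Of the early classical proteases, C1S fell and C1R did not pass the test. C1r activates C1s within the C1 complex, and C1s then cuts C4 and C2. Their genes lie on chromosome 12, C1S (ENSG00000182326) from 6988259 to 7071032 and C1R (ENSG00000159403) from 7080214 to 7092540. C1S had 14.6, 21.4, 20.1, 19.7 and 34.6 normalized counts in control replicates 1 to 5 and 5.91, 5.95, 11.3, 0 and 8.07 with tunicamycin. No tunicamycin library reached the lowest control library. The log2 fold change was -1.75 (standard error 0.41, edgeR adjusted p = 0.00276), with a wide 95% interval from -2.62 to -0.89, and the call was lost after thinning all libraries to the smallest total, where the adjusted p was 0.0572. C1R had 8.61, 7.13, 9.62, 10.8 and 16.3 normalized counts in control replicates and 5.07, 2.98, 11.3, 4.12 and 8.07 with tunicamycin, which overlap. Its log2 fold change was -0.72, with a 95% interval from -1.59 to 0.15 (edgeR adjusted p = 0.191). With 85 reads of C1R and 149 of C1S in all 10 libraries together, the depth limits both values.

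C2 (ENSG00000166278), the catalytic subunit of the classical C3 convertase, was the only one of the 9 genes to rise. It had 105, 117, 111, 118 and 119 normalized counts in control replicates 1 to 5 and 116, 166, 147, 172 and 186 with tunicamycin. Tunicamycin replicate 1 lay within the control range and the other 4 above it. The mean went from 114 ± 5.91 to 157 ± 27 (SD, n = 5 each), which is 1.36-fold (log2 fold change 0.45, standard error 0.13, edgeR adjusted p = 0.0105), and C2 was higher in 5 of 5 replicate pairs. CFB, the paralogous subunit of the alternative convertase, had only 0 to 6 reads per library and 29 in all, and did not pass the test (log2 fold change -0.78, 95% interval -2.27 to 0.72, edgeR adjusted p = 0.428). Its normalized counts were 3.44, 2.68, 3.5, 5.38 and 3.05 in control replicates and 0, 0, 4.72, 2.75 and 4.04 with tunicamycin, so that a change was not detectable at this depth.

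The low count of CFB is uncertain, since the table holds a second row under the same symbol (ENSG00000244255), at 0 in all 10 libraries. In GENCODE, this second gene starts in C2 and runs through CFB on the same strand, from 31927698 to 31952048 on chromosome 6 of GRCh38. Exons of other genes on that strand overlap 92.8% of the last 500 bases of the CFB transcript (ENSG00000243649, 31945650 to 31952086), but 6.4% of those of C2 (31897785 to 31945673). For reads that overlap several genes, the sources used here state only that the pipeline ran with its default settings. The part of this in the low count was not tested.

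In the terminal pathway no gene passed the test. C5 (ENSG00000106804, chromosome 9, 120932987 to 121075195), whose cleavage starts the membrane attack complex, had 314, 354, 383, 376 and 424 normalized counts in control replicates 1 to 5 and 320, 372, 337, 368 and 262 with tunicamycin. Tunicamycin replicate 5 was the lowest of the 10 libraries and the other 4 lay inside the control range. The log2 fold change was -0.15, with a 95% interval from -0.37 to 0.07 (edgeR adjusted p = 0.298). C8G (ENSG00000176919, chromosome 9, 136945185 to 136946975), the lipocalin-like gamma chain of C8, had 6.89, 9.81, 13.1, 8.06 and 6.1 normalized counts in control replicates and 3.38, 3.97, 8.5, 9.62 and 8.07 with tunicamycin. Its log2 fold change was -0.46 with a 95% interval from -1.32 to 0.40 (edgeR adjusted p = 0.414), and the sign turned to 0.17 after thinning. C8A and C8B, the other chains of C8, were also scarce, with 77 and 21 reads in all libraries together, and C6, C7 and C9 were too low to be tested. C8A had a log2 fold change of -0.923, with a 95% interval from -1.88 to 0.037 (edgeR adjusted p = 0.129), and was lower in 5 of 5 pairs. That of C8B was 0.115 (edgeR adjusted p = 0.925).

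By normalized counts, the order in control cells was C3, CFI, C4BPB, C5, C2, C1S, C1R, C8G and CFB. The libraries of CFI and C4BPB overlapped, as did those of C1S and C1R and those of C1R and C8G, whereas the other neighbours were separate. With tunicamycin C4BPB stood above CFI without overlap, CFI overlapped with C5, and C8G, C1R, C1S and CFB each overlapped with the next. The share of CFI in the sum of the 9 genes was 17.8% to 20.2% in control libraries and 11.1% to 15.7% in tunicamycin libraries.

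Ratios within a library were compared for 8 pairs of genes listed as partners. They depend on the scaling of library sizes only through a pseudocount of 0.5, which matters for genes of few reads such as C1S and CFB. The test was an exact two-sided permutation test over 5 against 5 libraries (smallest possible p = 0.00794), with adjustment over the 8 pairs. The log2 ratio of C3 to CFI, a substrate and the protease that inactivates it, was 1.7, 1.56, 1.28, 1.37 and 1.3 in control replicates 1 to 5 and 2.25, 2.0, 1.74, 1.61 and 1.67 with tunicamycin. It was higher in 5 of 5 pairs, by 0.41 on average (exact permutation p = 0.0238, adjusted p = 0.0476), although the highest control value exceeded 2 tunicamycin values. The log2 ratio of C4BPB to C4BPA, the chains of C4b-binding protein, went from 2.33 ± 0.27 to 1.81 ± 0.24 (SD, n = 5 each; exact permutation p = 0.0238, adjusted p = 0.0476) and was lower in 4 of 5 pairs.

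C3 also fell relative to ALB, the gene of serum albumin, by 0.565 on the log2 scale (exact permutation p = 0.0238, adjusted p = 0.0476), and in 5 of 5 pairs. ALB itself was not called (log2 fold change 0.04, edgeR adjusted p = 0.827). The 10 hepatocyte markers, ALB among them, had a median log2 fold change of -0.352, and C3 was not tested against them as a set. The ratio of C1R to C1S rose by 1.46 (exact permutation p = 0.0238, adjusted p = 0.0476), but tunicamycin replicate 4 had no read of C1S, and without it the difference was 0.76 (adjusted p = 0.0762). The ratios of C5 to C3 (difference 0.36, exact permutation p = 0.0397, adjusted p = 0.0529) and of CFB to C2 (difference -1.60, exact permutation p = 0.0317, adjusted p = 0.0508) did not pass after adjustment, nor did CFB to CFI or C8G to C8A. Sign flips within the 5 replicate pairs cannot give a p under 0.0625, so no ratio could pass with the pairing. Each of the 4 calls was lost in 9 of the 10 comparisons that left out a library. The calls that remained were C1R to C1S and C3 to CFI without tunicamycin replicate 5, and C4BPB to C4BPA and C3 to ALB without tunicamycin replicate 1.

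**Figure D1:**
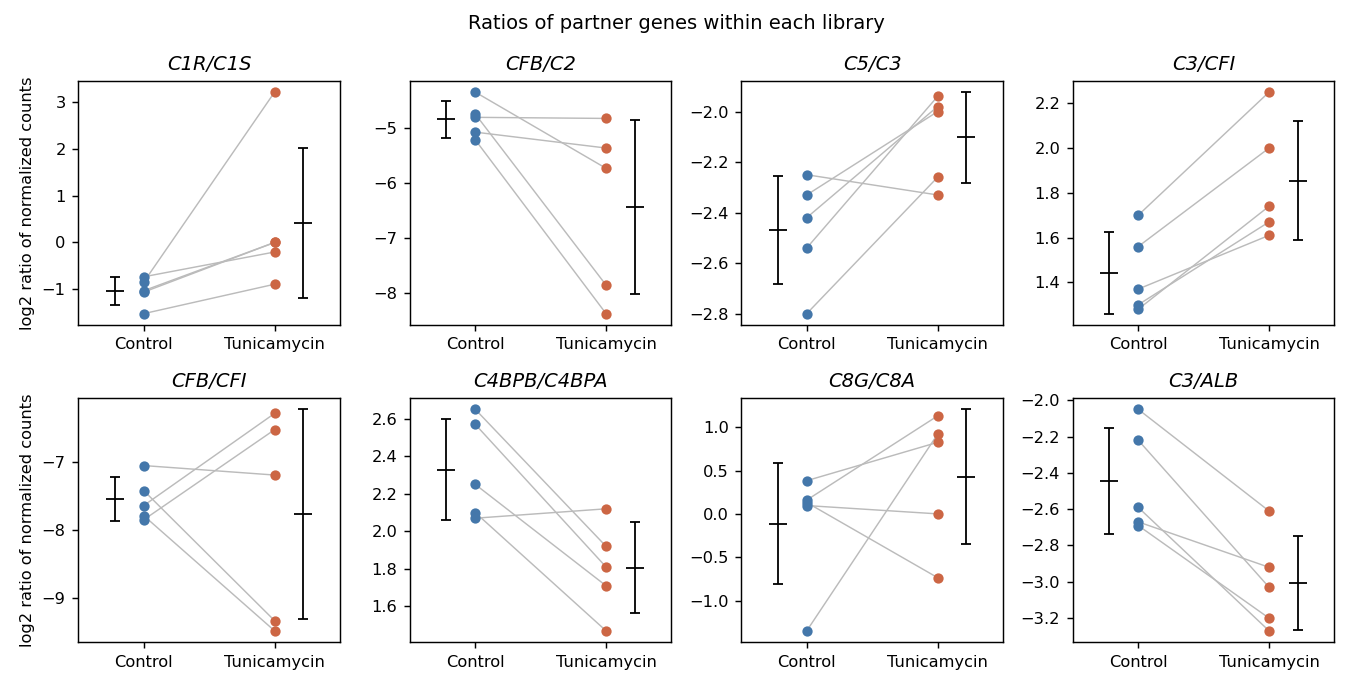
Log2 ratios of normalized counts of 8 pairs of partner genes in each library, drawn as in the plot of the 9 complement genes, with axes that do not start at 0. The ratio of C3 to CFI is higher with tunicamycin in all 5 pairs, and that of C3 to ALB is lower in all 5.

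Another 41 complement genes had been listed as the rest of the cascade, and 18 of them were tested. Of these, 4 rose and 4 fell, against 17.6% and 16.6% of all tested genes, 10 did not pass the test, and the median log2 fold change was -0.26. Of the 23 genes that were not tested, 16 had no count in any library, which allows up to 3 counts in each, or 0.596 to 1.34 CPM, counts scaled to a common library total. They include the 3 genes of C1q, which macrophages make, and FCN1, FCN2 and FCN3, the ficolins of the lectin pathway. C4A and C4B, near-identical copies between which reads can be split or lost, had 3 and 9 reads in all, and SERPING1, the C1 inhibitor, had 2.

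**Figure D2:**
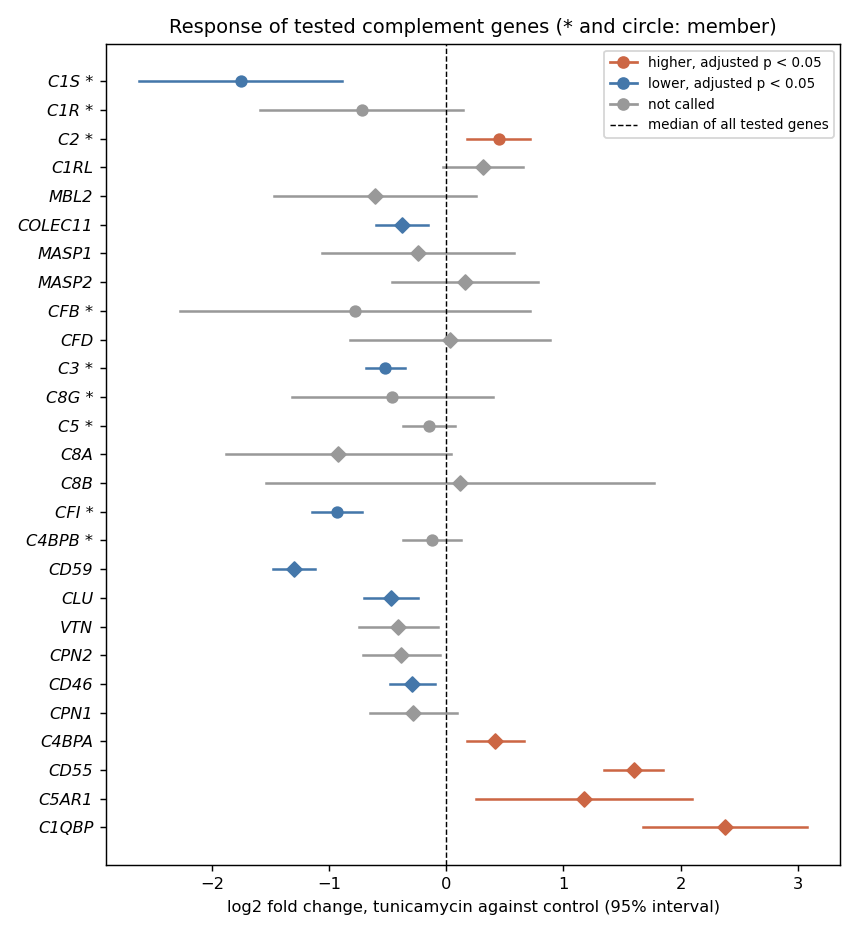
Log2 fold changes of the 27 tested complement genes with 95% intervals from edgeR's quasi-likelihood fit, grouped from top to bottom by pathway step, with circles and asterisks for the 9 genes described in full and diamonds for the others. The dashed line is the median of all tested genes at -0.003. CD55 and C1QBP lie farthest to the right, and C1S and CD59 farthest to the left.

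The membrane inhibitors moved in both directions. CD59, which blocks the last step of the membrane attack complex, had 755, 709, 716, 777 and 864 normalized counts in control replicates 1 to 5 and 301, 296, 316, 337 and 307 with tunicamycin. It fell to 0.407 of the control level, with no overlap (log2 fold change -1.30, standard error 0.09, edgeR adjusted p = 1.47e-09). CD55, which takes apart C3 convertases, had 65.4, 74, 74.4, 75.3 and 84.4 normalized counts in control replicates and 192, 234, 215, 261 and 236 with tunicamycin. It rose 3.04-fold, also without overlap (log2 fold change 1.60, standard error 0.12, edgeR adjusted p = 5.9e-09). CD46, a cofactor of factor I, fell by 0.29 on the log2 scale (edgeR adjusted p = 0.0199), but the call was lost in 3 of the 10 fits that left out a library. Their edgeR adjusted p-values were 0.0664 without control replicate 3, 0.0587 without control replicate 4 and 0.057 without tunicamycin replicate 3. The CD46 call was also lost in DESeq2 with the replicate block (adjusted p = 0.054) and after thinning to the smallest total (log2 fold change -0.223, edgeR adjusted p = 0.147).

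Among the soluble inhibitors, C4BPA rose, unlike its partner chain C4BPB, whose change did not pass the test. Its normalized counts were 112, 121, 112, 142 and 122 in control replicates 1 to 5 and 136, 180, 171, 163 and 165 with tunicamycin (log2 fold change 0.42, standard error 0.12, edgeR adjusted p = 0.00842). CLU, or clusterin, which holds back the membrane attack complex, fell by 0.47 on the log2 scale (edgeR adjusted p = 0.00266). Its control libraries lay between 2011 and 2153 normalized counts and 4 tunicamycin libraries between 1300 and 1421, while tunicamycin replicate 4 had 2063. VTN (log2 fold change -0.41, edgeR adjusted p = 0.0563), CPN1 (-0.28, 0.24) and CPN2 (-0.38, 0.0664) did not pass the test. With the replicate block VTN (edgeR adjusted p = 0.0448) and CPN2 (0.0113) passed as lower.

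Of the lectin pathway, COLEC11, a collectin that recognises sugars, fell by 0.38 on the log2 scale, from 240 ± 25.1 to 185 ± 14.9 normalized counts (SD, n = 5 each; edgeR adjusted p = 0.0087), with overlap between the conditions. The proteases MASP1 (log2 fold change -0.243, edgeR adjusted p = 0.673) and MASP2 (0.158, 0.719) and the mannose-binding lectin MBL2 (-0.608, 0.272) had at most 35.7 normalized counts in a library and did not pass the test. C1RL, a relative of C1R (log2 fold change 0.32, edgeR adjusted p = 0.146), and CFD, the protease that cuts factor B (0.03, 0.959), did not pass it either.

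Both receptor genes that were tested rose. C1QBP, a C1q-binding protein that resides mainly in mitochondria, had 18.1, 28.5, 39.4, 52.9 and 31.5 normalized counts in control replicates 1 to 5 and 60, 130, 186, 304 and 230 with tunicamycin. It rose 5.2-fold (log2 fold change 2.38, standard error 0.34, edgeR adjusted p = 2.09e-05), and 99.4% of tested genes had a lower log2 fold change. Exons of DHX33 or an unnamed gene on the same strand overlap 20% of the last 500 bases of its transcript, and exons of RPAIN on the opposite strand 20.2%. C5AR1, the C5a receptor, had 4.3, 4.46, 2.62, 8.96 and 3.05 normalized counts in control replicates and 19.4, 7.94, 9.45, 6.87 and 8.07 with tunicamycin, with 76 reads in all. Its call (log2 fold change 1.18, edgeR adjusted p = 0.045) was lost with the replicate block (adjusted p = 0.0657), in DESeq2 (0.0557) and when control replicate 1, 2, 3 or 5 or tunicamycin replicate 1, 3 or 5 was left out, and without tunicamycin replicate 1 the log2 fold change was 0.78 (adjusted p = 0.225).

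Hepatocytes raise complement genes in the acute phase response through interleukin-6, interleukin-1 and interferon signals and C/EBP factors. A list of 28 receptors, kinases and transcription factors of these routes was all tested, with 2 genes higher, 8 lower and a median log2 fold change of -0.13. These 10 of 28 genes stand beside 34.2% of all tested genes, 17.6% higher and 16.6% lower. With the replicate number as a block, edgeR called 15 of them, the same 10 and 5 more. Over all 12733 tested genes, the block raised the calls from 4353 to 4811. IFNGR1 (log2 fold change 0.68, edgeR adjusted p = 0.000681) and HNF4A (0.26, 0.0165) were higher, and NFKB1, NFKBIA and TYK2 were lower. CEBPB, a C/EBP factor of the acute phase, had 128, 142, 157, 144 and 151 normalized counts in control replicates 1 to 5 and 313, 399, 447, 477 and 462 with tunicamycin. It rose 2.89-fold without overlap (log2 fold change 1.53, standard error 0.12, edgeR adjusted p = 9.46e-09). By contrast STAT3, the transcription factor that interleukin-6 activates, had 594 ± 59.6 normalized counts in control and 385 ± 44.8 in tunicamycin-treated cells (SD, n = 5 each), without overlap (log2 fold change -0.62, edgeR adjusted p = 7.69e-05).

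IL1R1, the signalling receptor of interleukin-1, had 126, 128, 153, 135 and 159 normalized counts in control replicates 1 to 5 and 53.2, 67.5, 32.1, 38.5 and 48.4 with tunicamycin, without overlap (log2 fold change -1.54, standard error 0.17, edgeR adjusted p = 1.15e-06). IL1RAP, the accessory chain of this receptor, had a log2 fold change of -0.71 (edgeR adjusted p = 0.00936), a call lost after thinning (0.115). IL1RN, the receptor antagonist, fell to 0.5 of the control level (edgeR adjusted p = 7.58e-05). RELB, a subunit of NF-kB, rose by 0.60 on the log2 scale (edgeR adjusted p = 0.0411), but did not pass without control replicates 1, 2 or 4 or tunicamycin replicates 1, 2 or 3 (adjusted p of at most 0.124), and in DESeq2 with the replicate block (adjusted p = 0.105). JAK1, RELA and CEBPA also fell, each by less than 0.5 on the log2 scale, and the receptor genes IL6R and IL6ST did not pass the test. RELA did not pass in DESeq2 with the replicate block (adjusted p = 0.0695). The RELA call was also lost without control replicate 2, 3 or 5 or tunicamycin replicate 2, 3 or 5 (edgeR adjusted p from 0.052 to 0.101). After thinning to the smallest total, RELA had a log2 fold change of -0.0787 (edgeR adjusted p = 0.725), and CEBPA did not pass (0.145). Exons on the opposite strand cover the whole last 500 bases of CEBPA.

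**Figure D3:**
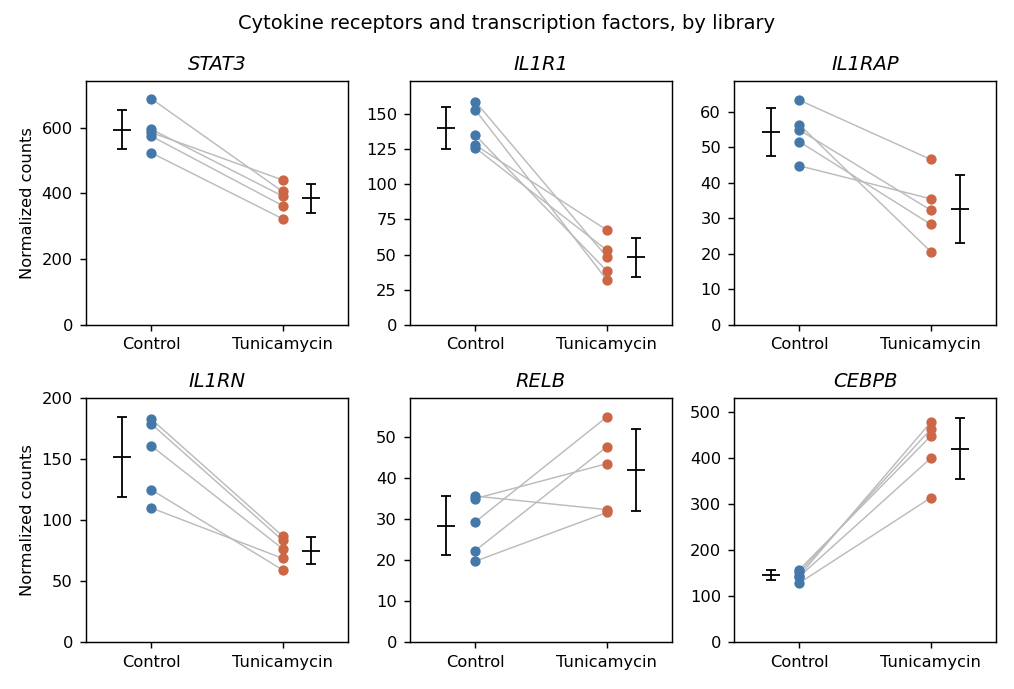
Normalized counts of 6 called cytokine receptors and transcription factors with log2 fold changes over 0.5 in size, drawn as in the plot of the 9 complement genes. CEBPB is higher in every tunicamycin library than in any control library, STAT3, IL1R1 and IL1RN are lower in every one, and IL1RAP and RELB overlap.

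Promoter sequences of RefSeq on GRCh38, from 250 bases before to 50 bases after a transcript start, were matched for 6 of the 9 genes, C1R, C2, C5, C4BPB, CFB and CFI, in 11 promoters. They were searched on both strands for short motifs of factors that act on acute phase or stress genes. A gene was counted when any of its promoters matched, whereas the percentages are of single promoters. The number of genes therefore cannot be set directly against the percentage. The letters TTCNNNGAA of a STAT site occur in promoters of C1R, C4BPB and CFB and in 7.66% of 34943 promoters, and GAAA, any 2 bases and GAAA, as in interferon response elements, in that of CFB and in 3.57%. The letters TTGCNNAA of a C/EBP site were found for C1R, and in 10.5% of all promoters. The parts of the ER stress response element, CCAAT and CCACG, occur for 3 genes each, C4BPB, C5 and CFI for the former and C1R, C2 and C5 for the latter, and in 34.6% and 38.1% of promoters. The letters GGG, any 3 bases and TTCC (NF-kB), TGACTCA (AP-1), TGATGNAA (ATF4) and CAAAGTCCA (HNF4) were in none of these 11 promoters. No match found for the 6 genes overlapped another.

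The windows below are shown because C2 rose and CFI fell, and CFB, the paralogue of C2, carries the letters of both cytokine motifs. A link between a motif and a change was not tested. C5, whose windows are not shown, has both CCAAT and CCACG and did not pass the test (log2 fold change -0.15, edgeR adjusted p = 0.298). Capitals mark the motif in either direction, each sequence is read 5′ to 3′ on the gene's strand, and all are from GRCh38. The first base of the motif lies 199 bases before the transcript start in CFI, 58 and 39 in C2 (from different starts) and 92 and 140 in CFB, in the order printed.
CFI, CCAAT reversed, chr4:109802181-109802210, minus strand: aaacaagttcctATTGGtcacctccctcag
C2, CCACG reversed, chr6:31897713-31897742, plus strand: cgccccgggtcaCGTGGgcgagggagggag
C2, CCACG, chr6:31900948-31900977, plus strand: ggcatttctccaCCACGtgctccatctgca
CFB, STAT letters, chr6:31945993-31946022, plus strand: cgcttggatgTTCCGGGAAagtgatgtggg
CFB, interferon response letters reversed, chr6:31945945-31945974, plus strand: acttctgcagTTTCTGTTTCcttgactggc

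The genes whose pattern over the 10 libraries was nearest to that of C3 were FAM134A, ATP6V0E1, H2AFV, CTSH and SYNGR2, by the root mean square distance of log2 values centred on the control mean, among 9706 genes with a mean of at least 20 normalized counts. The distances were 0.07 for FAM134A and ATP6V0E1 and 0.08 for the other three, on the log2 scale. Their log2 fold changes lay between -0.57 and -0.49. The distance includes the shift with tunicamycin, so that values near that of C3 follow from how these genes were chosen.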

How the data were processed

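RNA of HepG2 cells was sequenced from 3′ ends (QuantSeq FWD kit). The authors processed the reads with the nf-core RNA-Seq pipeline on hg19 and deposited raw counts per gene, unfiltered, with 1 column per library. The aligner, the counting program and its use of strand are not named in the sources used here. All 10 sample columns were used and 0 were left out.

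Genes were filtered with edgeR's filterByExpr (minimum count 2, minimum total 10), as in the paper's methods, which left 12733 of 32738. Of the 9 complement genes, 7 exceeded the minimum in all 10 libraries, whereas C1S did so in 4 and CFB in 3 of the 5 tunicamycin libraries. After TMM scaling, condition was the only term of the quasi-likelihood fit in edgeR 4.0.16 under R 4.3.3. The Benjamini-Hochberg adjustment ran over all tested genes. The standard error is the absolute log2 fold change divided by the square root of F, and intervals are at 95%. Ratios used a pseudocount of 0.5 and the exact test with 252 splits. The fits were tested on simulated data. Libraries held 2234682 to 5029864 counts, and for genes of few reads this depth sets the precision.

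Replicate numbers pair libraries by day, per the series text. The correlation of paired deviations from condition means, across 9707 genes, was 0.36, 0.0197, 0.0764, 0.162 and 0.137 for replicates 1 to 5. Alternatives were DESeq2 1.42.0, the tool of the study, other scalings and filters, the replicate block, thinned counts and each library left out.

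The complement genes and all lists were chosen with earlier results of these data known. Values are given for the 9 genes, for tested genes of the complement list, for called genes of the cytokine list with a log2 fold change over 0.5 in size, and for the 5 genes nearest to C3. Some listed items are not reported here. Positions and exon overlaps come from GRCh38 with GENCODE release 44, matched by Ensembl identifier, and no hg19 coordinate is given. The reads were counted with another annotation, so these overlaps need not hold for the counts.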

Additional observations from a re-analysis of the deposited data

Results flagged for a closer look

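Dixon's criterion set 3 normalized counts of named genes apart from the remaining 4 of their condition, among 56 sets of 5 libraries that were examined. About 2.8 would be set apart by chance. CLU had 2060 normalized counts in tunicamycin replicate 4, against 1300 to 1420 in the others. C5AR1 had 8.96 normalized counts in control replicate 4, against 2.62 to 4.46, and 19.4 in tunicamycin replicate 1, against 6.87 to 9.45. No value of the 9 complement genes was set apart, nor was a total or a mitochondrial share.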

How the results depend on the processing

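The calls of C3, CFI and C2 kept their direction and their side of the threshold in all 18 alternatives, where the highest adjusted p was 0.000381, 1.42e-05 and 0.0326, and C1R, C5, C8G, C4BPB and CFB were not called in any that gave a value. Counts thinned to the smallest library gave C1S a log2 fold change of -1.29 (adjusted p = 0.0572) and C8G one of 0.17, and left 5 of the 10 calls of the cytokine list. Fewer reads are tested there by construction, and 3248 of 12212 tested genes were called. With library sizes unscaled, 40.8% of called genes were higher, against 51.4% with TMM, the median of all genes was -0.08, ALB was at -0.0522 and no call among the 9 genes changed. The filter with default minimums removed C1R, C8G, CFB and C5AR1. For ALB, not called, leaving out a library gave -0.0292 to 0.108. The replicate block in edgeR changed no call among the 9 genes and took that of C5AR1 (adjusted p = 0.0657) and no other of a named gene, while in DESeq2 it also took CD46, RELB and RELA. In edgeR it added calls for 2 other complement genes and 5 of the cytokine list, while the calls over all 12733 tested genes went from 4353 to 4811.

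Of the ratios, C1R to C1S gave 0.85 thinned and 1.46 with the pairing, and 0.76 to 1.79 with a library left out. For C3 to CFI these were 0.56, 0.41 and 0.31 to 0.48, for C4BPB to C4BPA -0.50, -0.52 and -0.60 to -0.44, and for C3 to ALB -0.499, -0.565 and -0.66 to -0.47. None of these 4 passed when thinned or with the pairing. A pseudocount of 1 gave -1.27 for CFB to C2 (adjusted p = 0.0381) and 0.11 for CFB to CFI, which was 0.10 thinned. With a library left out, CFB to C2 lay between -2.0 and -1.11, CFB to CFI between -0.587 and 0.215 and C5 to C3 between 0.28 and 0.42. With the pairing the smallest p is 0.0625. The cause of the other changes was not tested.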
